A study of Mus musculus with 12 samples.

Results

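The genes described here are those of the mouse major histocompatibility complex (MHC) and of the antigen presentation pathway around it. Members were taken from a list of names: every gene whose symbol starts with H2-, together with B2m, Cd74, Ciita, Tap1, Tap2, Tapbp, Psmb8, Psmb9, Nlrc5 and Gm11131, a long noncoding RNA (lncRNA) gene inside the MHC region that was listed with its change between KO and WT lungs already known. The rule found 54 members among the 55679 genes of the table, and 50 of them lie on chromosome 17 (GENCODE vM39, GRCm39). B2m lies on chromosome 2, Cd74 on chromosome 18, Ciita on chromosome 16 and Nlrc5 on chromosome 8.

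RNA was sequenced from the whole lung and the whole heart of 6 male 129S6/SvEvTac adult mice of at least 9 weeks of age, 3 wildtype (WT) and 3 Adam19 knockout (KO). KO mice were homozygous for an Adam19-tdTomato allele, in which a tdTomato open reading frame and an antisense hygromycin resistance cassette take the place of exons 6 and 7 of Adam19 in every cell. Adam19 encodes a membrane metalloprotease, and WT mice of the same strain carried no targeted allele. Lung and heart of one animal share a mouse number, so the 12 libraries form 4 groups of 3 (WT lung, KO lung, WT heart and KO heart). Organs were not sorted into cell types, so fewer cells of a type and less RNA per cell cannot be told apart in any value below.

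MHC class I molecules are made of a heavy chain and beta 2-microglobulin (B2m), and they show peptides from inside nearly every nucleated cell to CD8 T cells. Peptides are cut by the proteasome, whose inducible subunits include Psmb8 and Psmb9, are carried into the endoplasmic reticulum by the Tap1-Tap2 transporter, and are loaded with the help of tapasin (Tapbp). MHC class II molecules pair an alpha and a beta chain, travel with the invariant chain (Cd74), and exchange its fragment for a peptide with the help of H2-DM, which H2-O restrains. Class II is known from B cells, dendritic cells and macrophages, and in lung also from alveolar type 2 epithelium. Nlrc5 and Ciita are the transactivators of class I and class II genes.

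Estimated counts summed to between 17674788 and 35862932 per library. A gene value below is the deposited log2 value. For nearly all single-transcript genes at 9 or above, it was within 0.01 of log2 of 1 plus the estimated count, shifted by a constant. There was 1 constant per library (-0.63 to 0.80). For genes with several transcripts the relation was not established, and summing their transcripts could give other values. Tap2 in KO minus WT lungs, for example, was -0.33 by gene value and 0.10 by summed transcripts. A gene was called when its Benjamini-Hochberg adjusted p in limma, over all genes tested, was below 0.05, its change was at least 1.5-fold, and the highest group mean was at least 6. Adam19 itself had gene values of 9.12 to 9.41 in WT lungs against 3.21 to 4.44 in KO lungs, and of 9.17 to 10.27 in WT hearts against 6.01 to 6.67 in KO hearts, which separated the genotypes as labelled. The surfactant gene Sftpc had values of at least 16.32 in every lung and at most 7.71 in every heart, and the cardiac myosin gene Myh6 at least 20.05 in every heart and at most 14.24 in every lung. One animal stood apart for the members: WT mouse 1 had the highest value of its tissue in 22 of 38 tested members in lung and in 18 of 29 in heart, against 14.1% and 10.7% of all genes tested. For the KO and WT comparisons, values without its libraries are given for a number of members.

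Class II genes and many class I genes share a compact promoter in which an X2 element, bound by CREB family proteins, precedes a Y element, the inverted CCAAT box bound by NF-Y. The stretches that follow, taken from RefSeq promoters (built on GRCm38.p6) and located on GRCm39 by exact match, lie just before the RefSeq start sites of genes whose values are given below, and they are shown because class I and class II members hold the same pair of letters at nearly the same distance. Capitals mark the X2 core (TGACG, with TGATG as its other form) and the Y core (ATTGG), each written in the direction of transcription.
H2-Aa: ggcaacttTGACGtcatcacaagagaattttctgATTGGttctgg
H2-Eb1: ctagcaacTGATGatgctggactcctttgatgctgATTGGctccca
H2-Eb2: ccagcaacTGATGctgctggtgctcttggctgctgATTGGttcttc
H2-DMb2: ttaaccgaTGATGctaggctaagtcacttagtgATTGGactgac
H2-Ob: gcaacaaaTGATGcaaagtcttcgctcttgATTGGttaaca
H2-K1: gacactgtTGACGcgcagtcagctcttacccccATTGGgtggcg
H2-D1: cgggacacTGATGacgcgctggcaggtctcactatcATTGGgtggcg
B2m: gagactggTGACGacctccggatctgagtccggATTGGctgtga

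On GRCm39 these stretches are chr17:34506835-34506879 (minus strand) for H2-Aa, chr17:34524747-34524792 (plus) for H2-Eb1, chr17:34544514-34544559 (plus) for H2-Eb2, chr17:34364100-34364143 (plus) for H2-DMb2, chr17:34457792-34457832 (plus) for H2-Ob, chr17:34219327-34219370 (minus) for H2-K1, chr17:35481958-35482004 (plus) for H2-D1 and chr2:121978082-121978125 (plus) for B2m. The 2 capitalised cores start 22 bases apart in H2-Ob and 25 to 28 bases apart in the others. In H2-D1 the capitalised TGATG, at 28 bases, overlaps a TGACG that starts 25 bases before the Y core and is not capitalised. In H2-K1 the Y core starts 16 bases before the start site, and in H2-Eb2 it starts 100 bases before it. The promoter table, which covers 250 bases before to 50 after each start, held 36 of the 54 members, 26 of which were tested for expression, and the 18 others were not searched. Either core, on either strand, was common: ATTGG, read on both strands, occurred in 32 of the 36 members and in 41.1% of all 27025 genes in the table, and either X2 core in 32 of 36 and in 56.96%. The pair on one strand, 22 to 28 bases apart, occurred in 13 of the 36 members and in 0.918% of all genes. That spacing was set after the members' promoters had been viewed, so the 13 are a description. They were H2-Aa, H2-Eb1, H2-Eb2, H2-DMb1, H2-DMb2, H2-Ob, H2-K1, H2-D1, B2m and 4 class Ib genes (H2-M3, H2-Q4, H2-Q6 and H2-Q7).

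Of the 54 members, 13 were listed at 0 in all 12 libraries. They included H2-Ea, the alpha chain of I-E, which some laboratory strains do not express, H2-Pb, H2-Q3, H2-Pa, and the H2-M1, H2-M10 and H2-M11 genes. Another 3 (H2-M6-ps, H2-M9 and H2-T3) were low but not always 0, with no value above 2.79. The filter (a value of at least 3.46, which stands for 10 scaled counts, in at least 3 libraries) kept 38 members in lung and 29 in heart. Members that passed it were 2 classical class I heavy chains, 17 of 30 class Ib genes, all 6 members of class I peptide supply and assembly (B2m included), 5 of 7 class II chains (Cd74 included), all 5 class II exchange genes, both transactivators and Gm11131. In heart the class Ib genes fell to 10, and H2-Eb2 and H2-Oa did not pass.

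**Figure D1:**
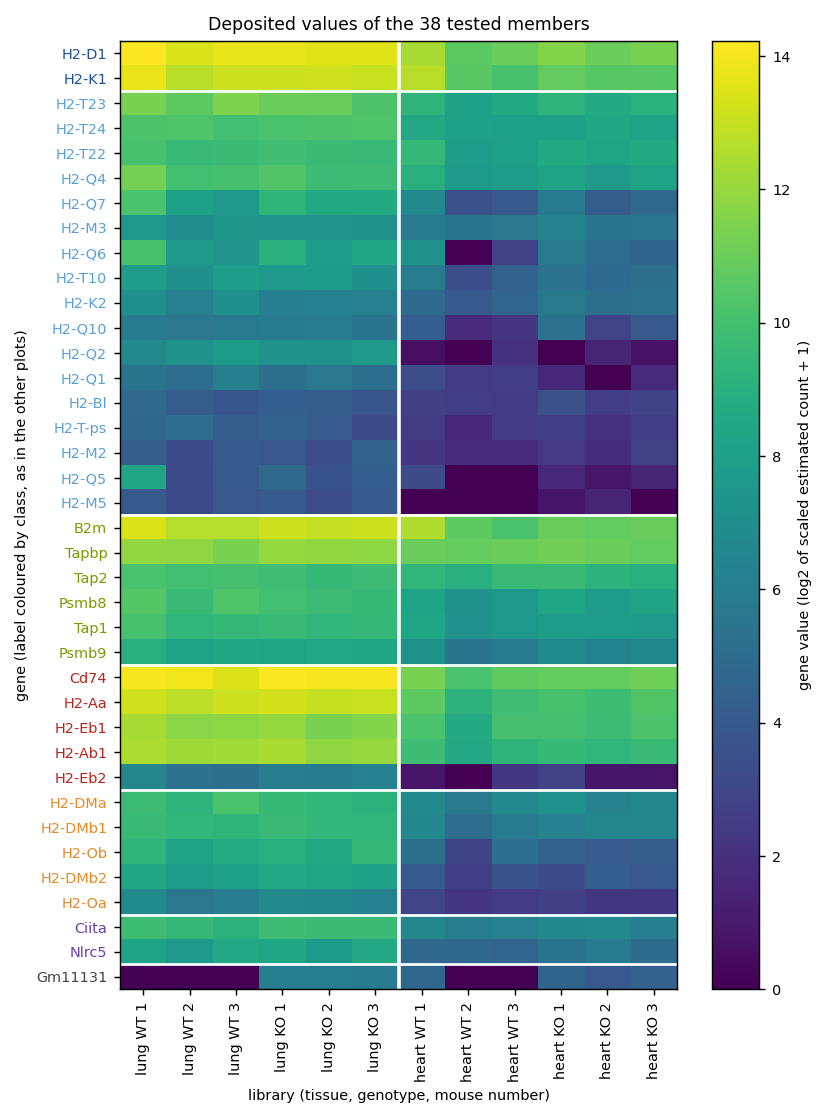
Each row is one of the 38 members tested in lung and each column one library, and colour gives the deposited gene value on a log2 scale from 0. Lung columns are brighter than heart columns for nearly all rows, H2-D1, H2-K1, B2m and Cd74 are the brightest rows, and Gm11131 is at 0 in the 3 WT lungs and in 2 of the 3 WT hearts.

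Lung and heart were compared across all 12 libraries, with genotype kept in the fit. Of the 38 tested members, 29 were called higher in lung and none lower. Among all 17666 genes tested, 51.3% were called, 30.1% higher in lung and 21.2% lower. Of those 38, 9 passed the filter through their lung libraries alone, which fixed their direction. The 29 members that also passed it in heart had 26 called higher and a median of 2.28, and 27 of them had every lung above every heart. The median difference of all tested members was 2.35 on the log2 scale (5.09-fold), and that of all genes tested was 0.31. Every lung library lay above every heart library in 35 of the 38, against 34.8% of all genes. Without both libraries of WT mouse 1 the members' median was 2.61, with 30 called. A median-ratio scaling moved the median of all genes from 0.31 to 0.10 and left 28 members called higher and none lower.

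Class II chains had a median difference of 3.07, and all 5 tested were called. Cd74, the invariant chain and the most abundant member per length in lung, had gene values of 14.06, 13.90 and 13.48 in WT lungs and 14.17, 14.06 and 14.01 in KO lungs, against 11.39, 10.16 and 10.78 in WT hearts and 10.85, 10.86 and 11.11 in KO hearts. Its difference was 3.09 (SE 0.18, adjusted p = 5.02e-09), or 8.49-fold. All 6 lungs lay above all 6 hearts, and genotypes overlapped within each organ. H2-Aa, the alpha chain of I-A, had 13.20, 12.84 and 13.16 in WT lungs, 13.26, 13.001 and 13.01 in KO lungs, 10.70, 9.20 and 9.88 in WT hearts and 10.09, 9.83 and 10.36 in KO hearts. It was 8.38-fold higher in lung (3.07, SE 0.21). Its partner H2-Ab1, the beta chain of I-A, was 7.18-fold higher (2.84, SE 0.18). H2-Eb1, the beta chain of I-E, was 3.92-fold higher (1.97, SE 0.24), the smallest difference among the class II chains called. H2-Eb2 was much lower in level, at 5.27 to 6.46 in lungs and 0.00 to 2.77 in hearts, and its fitted difference was 4.60 (SE 0.46). It passed the filter through its lung libraries alone, which fixed its direction.

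The 5 genes that exchange peptide on class II had a median difference of 3.86, and all were called. That median is the value of H2-Oa, which passed the filter through its lung libraries alone, so its direction was fixed. H2-DMa and H2-DMb1, the alpha and a beta chain of the exchange factor H2-DM, were 7.96-fold and 10.2-fold higher in lung. H2-DMb2, the other beta chain, was 25.1-fold higher (4.65, SE 0.27), with 7.89 to 8.57 in lungs and 2.63 to 4.26 in hearts. H2-DMb1 and H2-DMb2 share 95.7% of 1081 transcript bases, so reads may be split between them by estimate. H2-Oa and H2-Ob, the chains of the inhibitor H2-O, were 14.5-fold and 23.9-fold higher. H2-O is known chiefly from B cells and some dendritic cells, and all 4 B cell markers examined (Ms4a1, Cd79a, Cd79b and Pax5) were also called higher in lung, with a median difference of 4.38. Only 2 of these 4 passed the filter in heart, and the direction of the others was fixed by the filter. The summed level of those 4 markers ran from 9.41 to 10.64 in lungs and from 5.44 to 6.66 in hearts on the log2 scale.

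Classical class I heavy chains were high in both organs. H2-D1 had 14.23, 13.42 and 13.69 in WT lungs, 13.72, 13.51 and 13.56 in KO lungs, 12.38, 10.65 and 10.99 in WT hearts and 11.59, 11.05 and 11.38 in KO hearts. It was 5.10-fold higher in lung (2.35, SE 0.25, adjusted p = 2.09e-06). H2-K1 had 13.73, 12.72 and 13.13 in WT lungs, 13.14, 13.21 and 13.01 in KO lungs, 12.69, 10.58 and 10.11 in WT hearts and 10.81, 10.56 and 10.53 in KO hearts. Its difference was 2.28 (SE 0.35), and the heart of WT mouse 1 lay just under the lowest lung. B2m, the shared light chain, had 13.42, 12.64 and 12.67 in WT lungs, 13.15, 12.92 and 13.15 in KO lungs, 12.52, 10.72 and 10.15 in WT hearts and 10.90, 10.84 and 10.92 in KO hearts. B2m was 3.96-fold higher in lung (1.99, SE 0.31).

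The 6 genes of class I supply, B2m included, had a median difference of 1.89, and 5 were called. The immunoproteasome subunits Psmb8 and Psmb9 were 3.91-fold and 4.28-fold higher in lung, and Tap1 was 3.50-fold higher. Tap2, the other subunit of the peptide transporter, had 10.14, 9.95 and 10.03 in WT lungs, 9.85, 9.54 and 9.74 in KO lungs, 9.35, 8.96 and 9.62 in WT hearts and 9.59, 9.21 and 9.002 in KO hearts. Its difference was 0.58 (SE 0.13, adjusted p = 0.00138), or 1.4995-fold, which missed the 1.5-fold limit, and lungs and hearts overlapped. Leaving out 1 library at a time moved it between 0.50 and 0.67, and it was then called in 6 of 12 cases. Tapbp, which bridges the transporter and the class I heavy chain, was called with a difference of 0.82 (SE 0.11).

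Ciita, the class II transactivator, had 9.82, 9.49 and 9.14 in WT lungs, 9.81, 9.72 and 9.70 in KO lungs, 6.61, 5.95 and 6.19 in WT hearts and 6.64, 6.72 and 6.12 in KO hearts, and was 9.45-fold higher in lung (3.24, SE 0.16, adjusted p = 1.28e-09). Nlrc5, the class I transactivator, had 8.26, 7.71 and 8.56 in WT lungs, 8.43, 7.76 and 8.59 in KO lungs, 4.76, 4.80 and 4.65 in WT hearts and 5.47, 5.81 and 5.03 in KO hearts, and was 8.77-fold higher (3.13, SE 0.21). Both separated lungs from hearts completely. Of 12 other regulators (the RFX and NF-Y subunits, Creb1, Irf1, Irf2, Irf8, Rela and Nfkb1), 6 were called higher in lung and 3 lower. The shares over all genes tested were 30.1% higher and 21.2% lower. Irf8 was higher by 2.65 and Irf1 by 1.77, and among the subunits that bind the X and Y elements, Rfx5, Creb1 and Nfya were called higher while Rfxap, Rfxank and Nfyc were called lower.

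Class Ib genes, whose protein products are the less polymorphic relatives of the classical chains, had 10 of 17 called higher in lung. Only 10 of the 17 also passed the filter in heart, and the direction of the others was fixed by the filter. Of the 17, 15 are protein coding (9 called), and H2-K2 is annotated as a lncRNA and H2-T-ps as a pseudogene. H2-T23 (Qa-1), a ligand of inhibitory receptors on natural killer cells, had the highest mean level of them, with 11.36, 10.65 and 11.48 in WT lungs, 10.99, 10.92 and 10.26 in KO lungs, 9.25, 8.17 and 8.66 in WT hearts and 9.25, 8.73 and 9.09 in KO hearts. It was 4.24-fold higher in lung (2.08, SE 0.21). H2-T24 followed, with 10.005 to 10.32 in all 6 lungs and 8.05 to 8.59 in all 6 hearts, and was 3.90-fold higher (1.96, SE 0.12). H2-T22, a ligand of some gamma delta T cells, had 9.56 to 10.11 in lungs and 7.86 to 9.48 in hearts and was 2.33-fold higher (1.22, SE 0.23). H2-Q2 showed the largest difference of any member, 6.53 (SE 0.38), from 6.72 to 7.77 in lungs and 0.00 to 2.10 in hearts. It passed the filter through its lung libraries alone, which fixed its direction. Its fold depends on how values near 0 are handled. The 7 class Ib genes not called (H2-Q1, H2-Q5, H2-Q10, H2-M2, H2-M5, H2-Bl and H2-T-ps) had adjusted p of at most 0.00200, but their highest group means, 3.81 to 5.78, were under 6. Among the 19 class I and class Ib genes tested, 13 share at least 95% of 300 or more transcript bases with another member, for example H2-T10 and H2-T22 (96.5% of 1703 bases), H2-Q6 and H2-Q7 (96.0% of 953) and H2-Q1 and H2-Q2 (96.2% of 923), so the level of a single gene of these is uncertain.

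**Figure D2:**
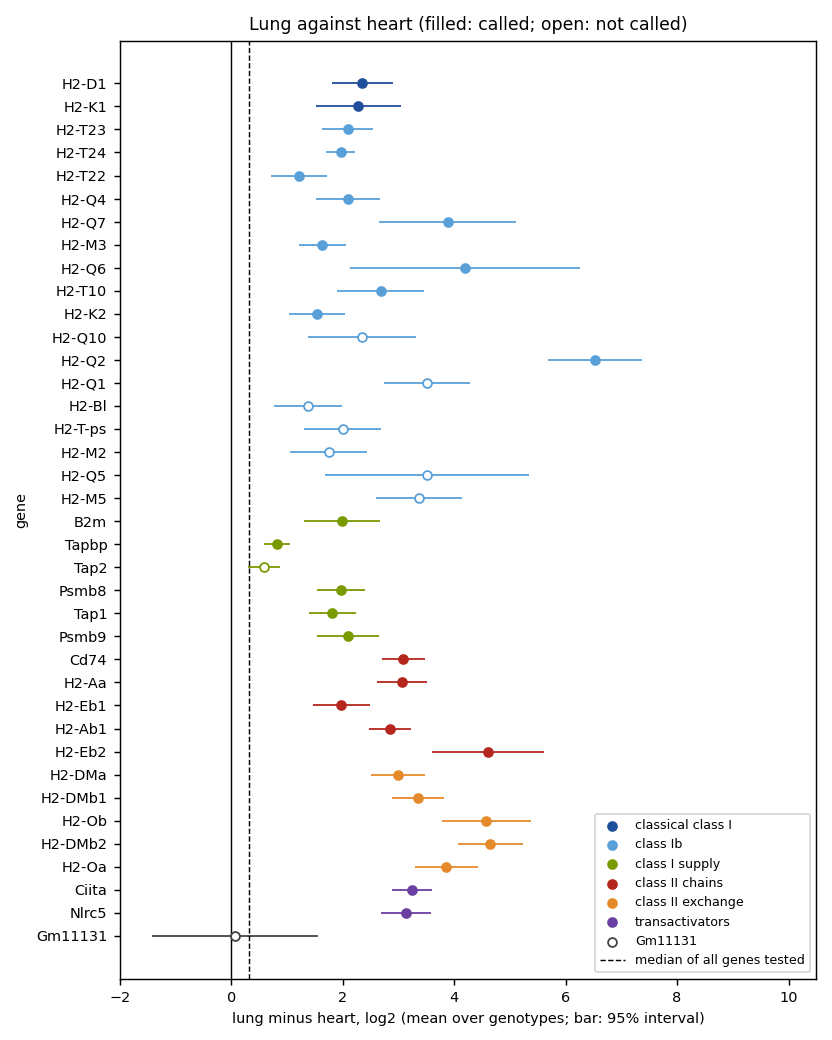
Points give the fitted difference between lung and heart on the log2 scale for the 38 tested members with bars for the 95% interval, coloured by class, filled where called, and the dashed line is the median of all genes tested (0.31). All points lie right of 0, the class II exchange genes lie between 2.99 and 4.65, Tap2 (0.58) and Tapbp (0.82) lie nearest the dashed line among the protein-coding members, and the interval of Gm11131 spans 0.

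Levels of different genes were compared per kilobase of transcript, in scaled estimated counts. In lung, Cd74 had 12805 ± 2087 (SD, n = 6 libraries of both genotypes), the 4 class II alpha and beta chains together 14812 ± 2251, the 2 classical heavy chains together 14763 ± 3912, and B2m 7648 ± 1624. In heart these levels were 1546 ± 412, 2425 ± 732, 3580 ± 2492 and 2203 ± 1593. The ratio of class II chains to classical heavy chains per length was 1.03 ± 0.13 (SD, n = 6) in lung, ranging from 0.818 to 1.17, and 0.788 ± 0.263 in heart, ranging from 0.388 to 1.096, so the ranges overlapped. Cd74 stood at 0.879 ± 0.184 of the class II chains in lung and at 0.650 ± 0.071 in heart. Both ratios depend on the length used. Divided by each gene's longest transcript, lung means were 8789 for class II chains, 11036 for classical heavy chains and 11187 for Cd74. Class II chains then lay below both others in lung. In heart these means were 1514, 2749 and 1386, in the same order as with each transcript's own length. The summed class Ib chains stood at 0.275 ± 0.011 of the classical chains in lung and at 0.309 ± 0.069 in heart. Cd74, H2-K1, H2-Aa, B2m and H2-D1 were the leading 5 members in lung by this measure, in that order, and B2m, H2-K1, Cd74, H2-D1 and H2-Aa in heart. Cd74 lay above H2-K1 in all 6 lungs, while some other neighbours lay within each other's spread. H2-Aa in lung, for example, had 7632 ± 1001 (SD, n = 3) in WT and 7767 ± 828 in KO, beside 7338 ± 2412 and 7957 ± 697 for B2m.

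**Figure D3:**
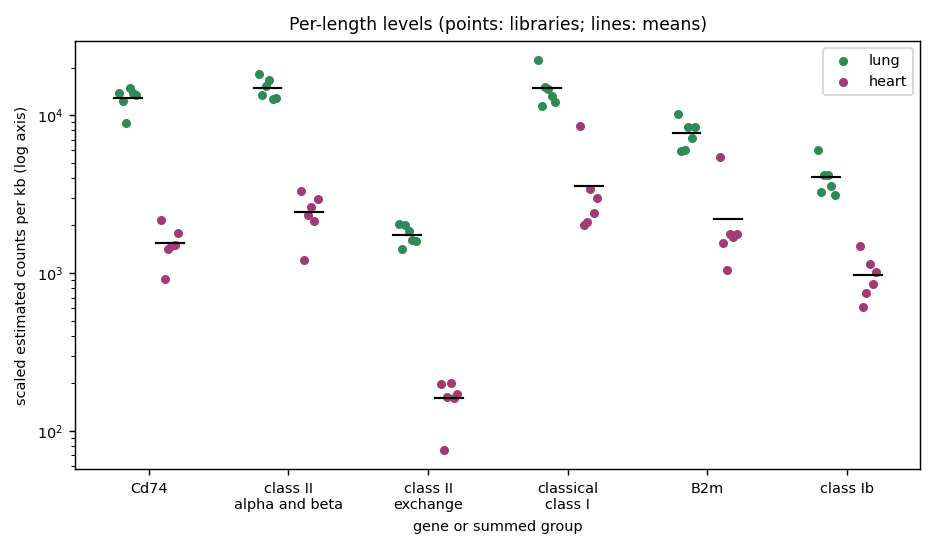
The vertical axis gives scaled estimated counts per kilobase on a log axis for Cd74, B2m and 4 summed groups, with one point per library and a line at the mean of the 6 libraries of a tissue. Lung points lie above heart points in every column, and the highest heart points for classical class I (8548) and B2m (5406) are WT mouse 1.

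Cd74 has coding forms of 215 and 279 codons, and the longer holds an extra exon that inhibits cysteine proteases. The longer form made up 25.7% ± 4.7 (SD, n = 6) of both coding forms in lung and 25.3% ± 3.2 in heart. The share was higher in lung in 2 of 6 mice (mean difference 0.359 percentage points, exact two-sided paired permutation p = 0.844). Its KO libraries in lung, at 21.1% to 23.999%, lay below the WT libraries, at 25.1% to 32.8% (exact two-sided permutation p = 0.1, the smallest that 3 against 3 can give), and in heart the groups overlapped (p = 0.5). A retained-intron form of Cd74 took 37.0% of the gene's estimated counts in the lung of WT mouse 3 and at most 1.36% in every other library.

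Markers of immune cells and of endothelium were compared between lung and heart in the same fit. Ptprc, carried by all leukocytes, was higher in lung by 4.51, and called higher in lung were 4 of 5 T cell markers, 3 of 7 dendritic cell markers, 5 of 6 macrophage markers (the other was lower), 5 of 5 alveolar macrophage markers, 3 of 3 neutrophil markers tested and 4 of 4 endothelial markers. Among all genes tested, 30.1% were called higher in lung. In heart the filter was passed by 1 T cell, 2 dendritic cell, 1 alveolar macrophage and 0 neutrophil markers. Markers that passed through lung libraries alone had their direction fixed by the filter. All 6 macrophage and all 4 endothelial markers passed in heart. Summed macrophage markers ran from 13.01 to 13.16 in lungs and from 11.95 to 12.25 in hearts, summed dendritic cell markers from 10.96 to 11.19 and from 8.62 to 9.21, and summed T cell markers from 8.80 to 9.37 and from 4.43 to 5.45. The largest part of the dendritic cell sum was Itgax in lungs (10.06 to 10.47) and Zbtb46 in hearts (8.44 to 8.94). Zbtb46 was not called between lung and heart (0.35), and Xcr1 and Clec9a, at lower levels, were not called either. Neutrophil markers ran from 9.998 to 10.98 in lungs and from 2.45 to 4.56 in hearts, alveolar macrophage markers from 14.01 to 14.87 and from 4.02 to 5.59, and endothelial markers from 15.40 to 15.58 and from 13.83 to 13.96. The part of these cells in the members' differences was not tested.

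Other genes of the pathway, taken from lists of non-members, split more evenly than the members did. All genes tested were themselves split, with 30.1% called higher in lung and 21.2% lower. Of 11 genes of peptide supply and class I loading, 3 were called higher in lung (Tapbpl, Pdia3 and Sec61a1) and 2 lower (Psme1 and Hspa5), with a median difference of 0.10. Of 11 genes of class II processing, 6 were called higher, among them Ctss, the cathepsin that trims the invariant chain (3.76), Ifi30, a lysosomal thiol reductase (2.23), and Cd40 (2.88), while the cathepsins Ctsb and Ctsd were called lower (-0.84 and -1.41). Of 7 other MHC-like genes, Cd1d1 and Procr were called higher and none lower. No gene of these 4 lists was called between KO and WT in either organ, against 0.0665% of all genes tested in lung and 0.0850% in heart. With shares this low, nothing is read from that count.

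KO and WT lungs were compared to ask which members move when Adam19 is lost. Among the 38 members tested, 1 was called, against 0.0665% of all 16551 genes (11 genes). Since that member was listed with its change known, nothing is read from this count, and the other 37 had none called. The called member was Gm11131, with a value of 0 in each WT lung and of 6.07, 6.17 and 5.90 in KO lungs, or 77.1, 110 and 48.2 estimated counts. Its adjusted p was 0.00130. Set against a floor of 3 counts in each WT library, the mean log2 value of Gm11131 in KO lungs lay 15.7-fold above the mean floor. The call held with the lung of WT mouse 1 left out, but was lost without the lung of KO mouse 1 (adjusted p = 0.0535) or of KO mouse 2 (adjusted p = 0.0788). Under a filter that asks for 10 counts in every library Gm11131 was not tested.

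Gm11131 (ENSMUSG00000079505.3, chr17:35595991-35599280, minus strand, GRCm39) is a lncRNA gene with 1 listed transcript, and it overlaps the class Ib gene H2-Q4, which is read from the plus strand. Of its 3122 exonic bases, 503 (16.1%) in 2 stretches of 98 and 405 bases are also exonic in H2-Q4 on the other strand. The start of the longer stretch, inside a coding exon of H2-Q4, is shown because a read from it fits either gene where strand is not used.
H2-Q4, chr17:35598864-35598923, plus strand, GRCm39: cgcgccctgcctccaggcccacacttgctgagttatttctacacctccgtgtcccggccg

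The libraries were made with a stranded kit, but the strand setting of the quantification is not given in the sources used here. In each library that had any Gm11131, it stood at 4.76% to 7.56% of the sum of Gm11131 and H2-Q4 estimated counts. H2-Q4 itself had 11.24, 9.90 and 10.05 in WT lungs and 10.37, 9.77 and 9.76 in KO lungs. The 2 genes summed gave 10.40 ± 0.73 (SD, n = 3) in WT lungs, and KO lungs were lower by 0.34 (exact two-sided permutation p = 0.5, where 0.1 is the smallest possible). In hearts the KO minus WT difference of the sum was 0.0022 (exact two-sided permutation p = 1).

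No other member was called in lung. The median difference of the 38 members was 0.01, the same as that of all genes tested to 2 decimals, with 20 above 0 and 18 below. Without the lung of WT mouse 1 the median was 0.10 with 26 of 38 above 0, against -0.02 for all genes, and Gm11131 was again the 1 member called. Cd74 differed by 0.26 (95% interval -0.15 to 0.68), H2-Aa by 0.03 (-0.34 to 0.40), H2-K1 by -0.07 (-0.63 to 0.48), H2-D1 by -0.18 (-0.67 to 0.31) and B2m by 0.16 (-0.35 to 0.67). Ciita differed by 0.26 (-0.17 to 0.70) and Nlrc5 by 0.08 (-0.57 to 0.74). Without the lung of WT mouse 1, B2m differed by 0.42 (0.03 to 0.80), Cd74 by 0.39 (-0.06 to 0.83), Ciita by 0.43 (-0.0018 to 0.86), H2-K1 by 0.20 (-0.24 to 0.64), H2-D1 by 0.045 (-0.37 to 0.46) and H2-Q7 by 0.97 (0.36 to 1.57, against 0.21 with it). Without that lung, the lowest adjusted p in limma apart from Gm11131 was 0.806. The smallest p after Gm11131 belonged to H2-K2 and to Tap2. H2-K2 had 7.17, 6.20 and 7.14 in WT lungs and 6.14, 6.28 and 6.21 in KO lungs, a difference of -0.63 (SE 0.29, adjusted p = 0.836). Tap2 was lower in all 3 KO lungs than in any WT lung (-0.33, SE 0.15, adjusted p = 0.836), but the difference was 0.10 when transcripts were summed. Tap2 and Gm11131 were the only 2 of 38 members whose KO and WT lungs did not overlap, against 12.8% of all genes.

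**Figure D4:**
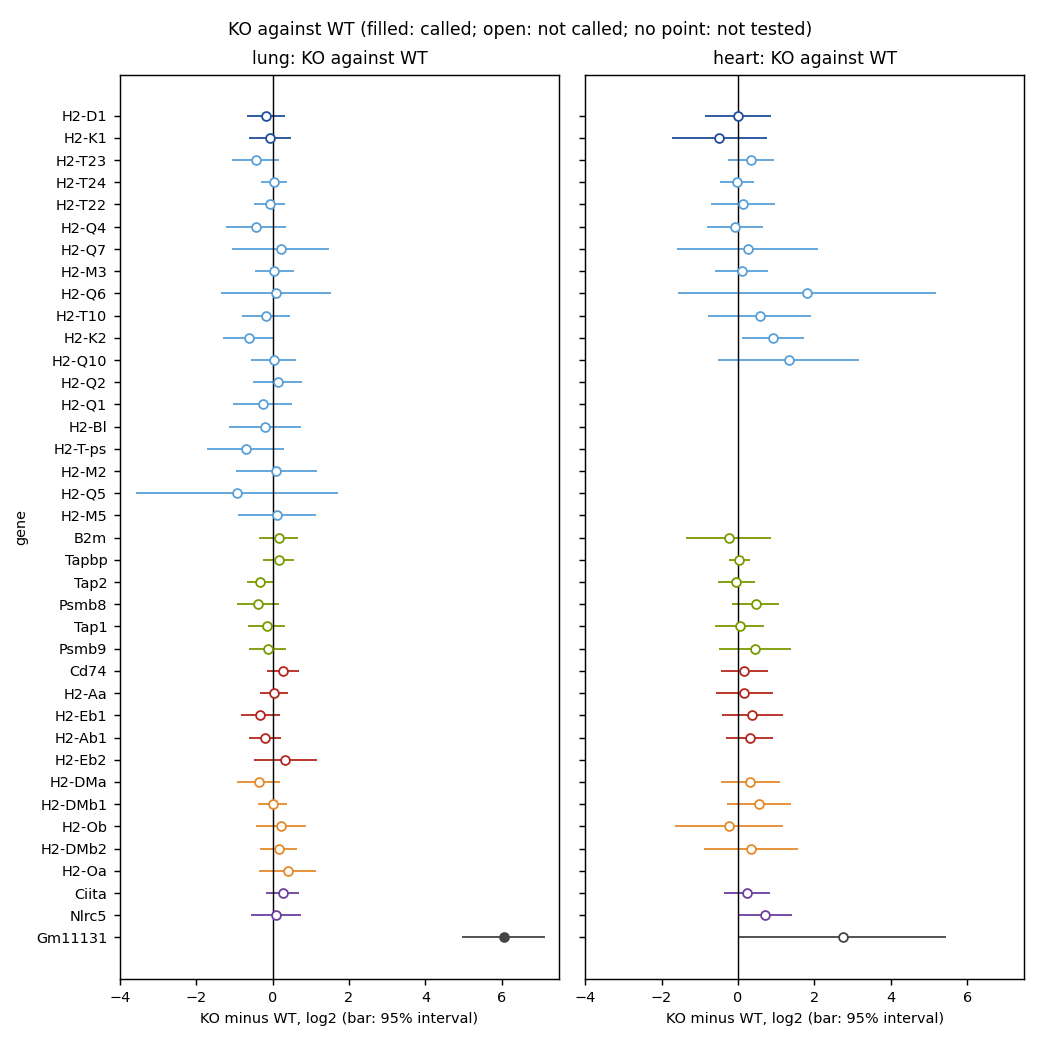
Points give KO minus WT on the log2 scale with 95% intervals for members tested in lung (left, 38 genes) and heart (right, 29 genes), filled where called. Gm11131 in lung is the only filled point, at 6.05, and apart from it the intervals in lung overlap 0, while in heart those of H2-K2 and Gm11131 lie just above 0 without passing the adjusted test.

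In heart, none of the 29 members tested was called by limma, against 0.0850% of all 15303 genes (13 genes). Some members, among them H2-K2, Gm11131 and Nlrc5, had highest group means under 6 (5.45, 4.33 and 5.44) and so could not be called. The lowest adjusted p of any member in limma was 0.641, so none missed a call through that limit alone. At an unadjusted p under 0.05 there were 2, H2-K2 and Gm11131, or 6.90% of members against 7.46% of all genes, and limma-voom also called none. H2-K2 had 4.99, 3.99 and 4.62 in WT hearts and 5.74, 5.24 and 5.36 in KO hearts (0.91, SE 0.36, adjusted p = 0.641). Gm11131 had 4.76, 0 and 0 in WT hearts and 4.61, 3.88 and 4.50 in KO hearts, so the heart of WT mouse 1 was above all KO hearts (2.74, 95% interval 0.03 to 5.46, adjusted p = 0.666). Nlrc5 had the next smallest p (0.70, SE 0.31, adjusted p = 0.674), with 4.65 to 4.80 in WT hearts and 5.03 to 5.81 in KO hearts. H2-K2 and Nlrc5 were the 2 members whose groups did not overlap, against 13.0% of all genes.

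The members' median in heart was 0.26 with 22 of 29 above 0, against 0.03 for all genes. It rested in part on which WT hearts were kept. Without the heart of WT mouse 1, 28 of 29 members were above 0 with a median of 0.60, against 0.05 for all genes, and still none was called (lowest adjusted p = 0.183, for Gm11131). The 2 WT hearts then left were those with fewer estimated counts, 20381284 and 18392292 against at least 31784742 in the other hearts, and the part of depth in this was not tested. With all libraries, B2m differed by -0.24 (95% interval -1.36 to 0.87) and H2-K1 by -0.49 (-1.74 to 0.75), and without WT mouse 1 by 0.45 (0.01 to 0.89) and 0.29 (-0.14 to 0.72). Cd74 differed by 0.16 (-0.45 to 0.77), and by 0.47 (-0.01 to 0.95) without that heart.

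Whether the KO and WT difference itself changed between lung and heart was tested by an interaction term. None of the 38 members was called by limma, against 0.00566% of all genes (1 gene), and 2 (5.26%) had an unadjusted p under 0.05, against 7.88% of all genes. H2-K2 was lower in KO lung and higher in KO heart, an interaction of -1.54 (95% interval -2.55 to -0.52, adjusted p = 0.517). The interaction of Gm11131 was 3.30 (0.32 to 6.29, adjusted p = 0.623). limma-voom and the fit with mouse as a block also called no member.

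WT hearts differed more among themselves than KO hearts for many class I members, with an SD of 1.24 against 0.04 for B2m (n = 3 each), and 1 animal stood highest. In its heart, WT mouse 1 had 12.52 for B2m against 10.15 and 10.72 in the other WT hearts and 10.84 to 10.92 in KO hearts, and 12.69 for H2-K1 against 10.11 and 10.58 in WT and 10.53 to 10.81 in KO. H2-Q6, a Qa-2 gene, had 7.30 there, 0 and 2.73 in the other WT hearts and 4.58 to 5.77 in KO hearts. Its relative H2-Q7 had 6.77 in that heart against 3.541 to 5.94 in the rest. The lung of the same mouse was also the highest of 6 for H2-K1, H2-D1, B2m, H2-Q4, H2-Q6 and H2-Q7. H2-Q5 had 8.38 in that lung and 3.19 to 4.94 in the others. The sum of H2-Q5, H2-Q6 and H2-Q7, whose sequences are near-identical, was 11.33 in the lung of WT mouse 1 against 8.64 to 10.22 in the others, and 8.11 in its heart against 3.45 to 6.87.

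The excess of WT mouse 1 was not equal across the pathway. Over its WT companions it was 2.09 for B2m, 2.35 for H2-K1 and 1.56 for H2-D1 and Psmb9 in heart, 1.02 for Tap1, 0.92 for Cd74, 0.05 for Tapbp, 0.06 for Tap2 and 0.04 for Nlrc5. In lung the excess was 0.77 for B2m and 0.36 for Cd74, but 0.32 for Tapbp, 0.15 for Tap2 and 0.12 for Nlrc5. Of the 29 members tested in both organs, 24 had the larger excess in heart and 5 in lung. The median excess over tested members was 1.02 in heart and 0.49 in lung, against 0.04 and -0.05 over all genes tested. Values of immune cell markers beside it were as follows. Ptprc was 8.04 in that heart and 7.46 to 7.94 in the other hearts, summed macrophage markers were 12.25 against 11.95 to 12.24, summed dendritic cell markers 8.83 against 8.62 to 9.21, summed B cell markers 5.82 against 5.44 to 6.66, and summed T cell markers 4.43, the lowest heart, against 4.75 to 5.45. Most of the dendritic cell sum in hearts was 1 gene, Zbtb46 (8.74 in that heart), so the sum says little about the other markers of that list. In the lung of WT mouse 1 summed B cell markers were 10.64 against 9.41 to 10.53 in the other lungs, and summed T cell markers 9.37 against 8.80 to 9.26, the highest lung for both. Of the 12 regulators, 5 were higher in the heart of WT mouse 1 than the mean of the other WT hearts (Irf8 the most, by 0.87) and 7 were lower (Nfya the most, at -0.65). Their part in the members' values was not tested.

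**Figure D5:**
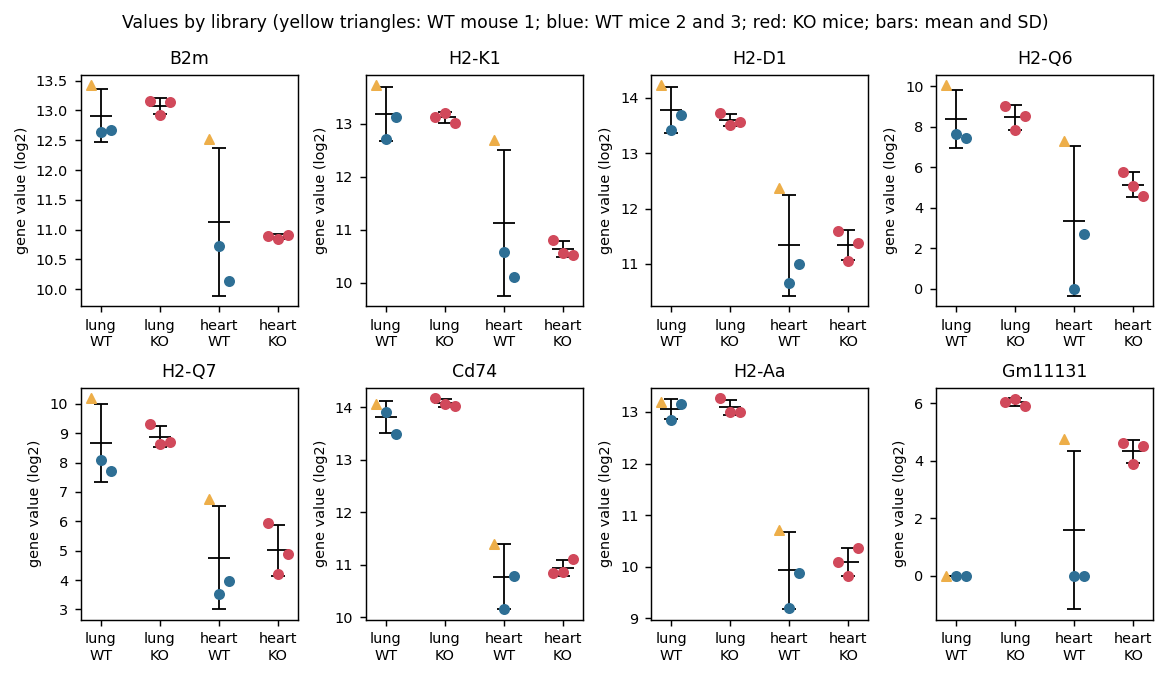
Each panel gives the deposited log2 gene value of one member in all 12 libraries by group, with the mean and SD of each group of 3; yellow triangles are WT mouse 1, blue points the other WT mice and red points KO mice. The triangles top the WT hearts in all 8 panels (12.52 for B2m, 12.69 for H2-K1), and Gm11131 is at 0 in the 3 WT lungs and between 5.90 and 6.17 in the 3 KO lungs.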

How the data were processed

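Strand-specific total RNA libraries (TruSeq, NextSeq) were quantified by the authors with Salmon 1.10.0 against GENCODE vM33 transcripts (mm39). The submitters' processing notes also name cutadapt and STAR, and the step from transcripts to genes is not given in the sources used here. The authors deposited log2 values per gene and per transcript. Transcript values are log2 of 1 plus the estimated count. Single-transcript genes with a value of at least 9 differed from these by 1 constant per library (at least 94.7% within 0.01), so gene values carry a scaling. Because these are not counts, deposited log2 gene values were tested with limma 3.58.1 (trend on, R 4.3.3), with pseudocount 1. Genes needed a value standing for 10 scaled counts in at least 3 libraries. Within-tissue comparisons used 6 libraries, and lung against heart and the interaction used 12. Calls needed an adjusted p under 0.05, 1.5-fold and a highest group mean of 6 (interaction: adjusted p only). The steps were tested on simulated data with known changes.

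Members and lists were chosen with earlier results of these data known. Values by library were planned for B2m, Cd74, Gm11131, the main class I and class II chains, the transactivators and the supply genes. They were also planned for members called between KO and WT, the 3 highest class Ib members and the 3 members with the smallest p in each KO and WT comparison. They are printed for B2m, Cd74, Gm11131, H2-Aa, H2-K1, H2-D1, H2-T23, H2-K2, Tap2, Ciita and Nlrc5. The other members named have ranges, folds, differences or values of some libraries. H2-Q2, H2-Q5, H2-Q6, H2-Q7, H2-Eb2 and H2-DMb2 were named after their values were seen. Near-identical transcripts were found with blastn 2.17.0 (95% over 300 bases). Positions are from GENCODE vM39 on GRCm39, which matched 99.0% of gene IDs. Lung and heart of one number come from one mouse by the labels, while numbers do not link KO to WT. Correlations of lung and heart deviations within a mouse ran from -0.068 to 0.136 over 17666 genes. Replicates are separate mice. Intervals and floors cover counting and library spread only. Some genes of the pathway and marker lists are not reported here and were left out of those lists' counts and sums.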

Additional observations from a re-analysis of the deposited data

How the results depend on the processing

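Alternatives comprised limma-voom on estimated counts, summed transcripts, median-ratio scaling, pseudocount 8, other filters, the replicate block and each library left out. The direction of lung against heart was the same in 740 of 745 values, and the 5 others were all Gm11131, at -0.46 with limma-voom, -0.031 with median-ratio scaling and at -0.049 or -0.33 in 3 cases with 1 heart library left out. With 1 library left out Gm11131 ranged from -0.33 to 0.86, and it was 0.86 without WT mouse 1. Members called between lung and heart numbered 22 to 31 over all settings. Asking for 10 counts in every library left 1 gene and 0 members called in KO lung and 7 genes in KO heart, with fewer genes tested. With 1 library left out, members called in lung ranged from 0 to 1 (Gm11131 from 5.98 to 6.12), genes called in heart from 10 to 21 and interaction genes from 0 to 6. Interaction genes numbered 2 with limma-voom, 4 with pseudocount 8 and 0 without WT mouse 1. With mouse as a replicate block, the number of members called stayed at 29 between lung and heart and interaction genes numbered 2.

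Small KO and WT differences changed sign. With summed transcripts Tap2 was 0.10 in lung and 0.021 in heart, and H2-D1 was 0.074 in heart, while with limma-voom Tap1 was -0.037 in heart. With 1 library left out, the ranges in lung were -0.084 to 0.10 for H2-Aa, -0.36 to 0.045 for H2-D1, -0.31 to 0.20 for H2-K1, -0.20 to 0.074 for H2-T22, -0.056 to 0.10 for H2-T24, -0.15 to 0.33 for Nlrc5, -0.28 to 0.073 for Psmb9, -0.29 to 0.071 for Tap1 and -0.015 to 0.26 for Tapbp. In heart they were -0.74 to 0.45 for B2m, -0.15 to 0.47 for Cd74, -0.20 to 0.55 for H2-Aa, -0.35 to 0.52 for H2-D1, -0.0067 to 0.50 for H2-DMa, -0.093 to 0.66 for H2-Eb1, -1.004 to 0.29 for H2-K1, -0.17 to 0.64 for H2-T22, -0.14 to 0.14 for H2-T24, -0.24 to 0.38 for Tap1, -0.22 to 0.11 for Tap2 and -0.028 to 0.12 for Tapbp. Divided by the longest transcript, per-length levels were 8789 in lung and 1514 in heart for class II chains, 1333 for class II exchange in lung and 2833 for class Ib in lung. The cause of these shifts was not tested. Leaving out both libraries of WT mouse 1 was chosen after seeing the data.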
